A study of Homo sapiens with 6 samples.

Results

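The HOX cluster genes are the 39 protein-coding genes named HOXA, HOXB, HOXC or HOXD followed by a number, among 58478 genes in the table. They were chosen by name and not by their values, and they lie in 4 clusters, with 11 genes in HOXA (chromosome 7), 10 in HOXB (chromosome 17), 9 in HOXC (chromosome 12) and 9 in HOXD (chromosome 2). Their RNA was compared between 3 libraries from cells at 1% oxygen for 24 h (hypoxia) and 3 libraries from cells at 21% oxygen for 24 h (normoxia). All 6 libraries are labelled Huh7, a line from a human hepatocellular carcinoma, with wild-type genotype and no other agent, so both groups stand for 1 cell line. Paired-end, strand-specific libraries were made from RNA freed of its ribosomal part. The series title asks about a long noncoding RNA induced by low oxygen, and the question answered here is which HOX genes differ between the oxygen levels.

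HOX genes encode homeodomain transcription factors that give cells their position along the body axis. Within a cluster the genes stand in the order in which they are used, from anterior genes with low numbers at the 3′ end to posterior genes with high numbers at the 5′ end. Genes with the same number in different clusters are paralogs. Polycomb complexes keep the clusters silent, Trithorax-type methyltransferases keep them active, retinoic acid induces the anterior genes, and PBX and MEIS proteins of the TALE class bind DNA together with HOX proteins. Adult cells keep a HOX pattern that reflects their origin, and the antisense RNAs and microRNAs inside the clusters are known regulators of their neighbours.

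HOX mRNAs differed between the oxygen levels in both directions, and most genes that changed were lower in hypoxia. Of the 39 genes, 27 had enough counts to be tested, 12 were not tested, and 6 of those 12 had no count in any library. In the edgeR test 21 of the 27 changed (77.8%), against 72.8% of the 17396 genes tested in the whole table, so the share that changed was near the background. Only 6 were higher in hypoxia (22.2%, against 36.5% of all genes tested), and 15 were lower (55.6%, against 36.3%). Among the protein-coding genes tested 77.7% changed, with 34.7% higher and 43% lower. When scaled by library totals instead of TMM, 3 HOX genes were higher and 16 lower. The median log2 change of the 27 was -0.52, against 0.03 for all genes tested and -0.08 for the protein-coding ones. The changes of 2-fold or more were 3 higher (17.5% of all genes tested) and 5 lower (11.4% of all genes tested). The hypoxia and normoxia libraries did not overlap for 24 of the 27 (75.7% of all genes tested), with hypoxia above in 7 (38.1%) and below in 17 (37.6%). These counts describe the family, and no test of the family against other genes was made.

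HOXA13, HOXB8 and HOXB9 were the 3 genes at least 2-fold higher. HOXA13, whose product patterns the digits, hindgut and urogenital tract, rose 4.42-fold, and HOXB9 and HOXB8, trunk-level genes, rose 5.36-fold and 4.33-fold. The noncoding RNA that starts next to HOXA13, HOTTIP, rose 4.36-fold. The stretch between the HOXA13 and HOTTIP starts is printed here because both RNAs rose, beside the stretch between HOXA11 and its antisense RNA, which moved in opposite directions. The sequences are the 250 bases before each RefSeq start (GRCh38.p14), and capitals mark the bases that both partners' stretches share, read on opposite strands.
HOXA13 promoter, chr7:27200092-27200341, minus strand: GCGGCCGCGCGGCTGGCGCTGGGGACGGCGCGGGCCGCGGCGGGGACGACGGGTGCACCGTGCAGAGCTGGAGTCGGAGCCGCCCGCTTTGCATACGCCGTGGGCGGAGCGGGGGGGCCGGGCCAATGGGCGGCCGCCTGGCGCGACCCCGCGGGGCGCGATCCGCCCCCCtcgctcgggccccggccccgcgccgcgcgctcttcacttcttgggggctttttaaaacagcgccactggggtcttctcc
HOTTIP promoter, chr7:27200171-27200420, plus strand: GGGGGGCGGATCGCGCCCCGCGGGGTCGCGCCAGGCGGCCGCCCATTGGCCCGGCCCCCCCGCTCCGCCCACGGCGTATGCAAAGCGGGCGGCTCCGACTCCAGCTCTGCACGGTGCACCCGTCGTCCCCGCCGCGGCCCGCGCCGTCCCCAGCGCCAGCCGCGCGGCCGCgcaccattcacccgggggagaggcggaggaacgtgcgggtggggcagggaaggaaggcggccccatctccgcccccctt
HOXA11 promoter, chr7:27185233-27185482, minus strand: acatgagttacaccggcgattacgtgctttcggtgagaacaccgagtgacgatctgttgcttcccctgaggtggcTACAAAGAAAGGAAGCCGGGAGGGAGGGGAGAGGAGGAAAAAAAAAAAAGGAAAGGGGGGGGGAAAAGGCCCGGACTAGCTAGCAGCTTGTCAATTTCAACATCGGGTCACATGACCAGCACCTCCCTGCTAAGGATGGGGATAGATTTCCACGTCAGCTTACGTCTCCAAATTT
HOXA11-AS promoter, chr7:27185158-27185407, plus strand: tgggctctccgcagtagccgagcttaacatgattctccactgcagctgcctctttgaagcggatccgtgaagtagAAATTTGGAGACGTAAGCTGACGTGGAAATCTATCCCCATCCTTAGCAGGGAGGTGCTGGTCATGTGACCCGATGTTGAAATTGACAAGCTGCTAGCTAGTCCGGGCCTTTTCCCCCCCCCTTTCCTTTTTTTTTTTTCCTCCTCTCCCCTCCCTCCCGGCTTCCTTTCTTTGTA
The HOXA13 and HOTTIP starts lie 330 bases apart and point away from each other, and 171 bases are common to both stretches. The HOXA11 and HOXA11-AS starts lie 176 bases apart and share 175 bases. The HOXA13 stretch is 78% G and C with 40 CpG dinucleotides, whereas the HOXA11 stretch is 51.6% G and C with 11. The core of the hypoxia response element, ACGTG or GCGTG on either strand, is not in the HOXA13 stretch and occurs 1 time in the HOTTIP stretch, with its first base 49 bases before the start. The HOXA11 stretch holds it 2 times and the HOXA11-AS stretch 1 time. The HOXA11-AS match lies in the shared bases and is the same site as the HOXA11 match at -25. RefSeq promoters were matched for 20 of the 39 HOX genes, with 26 distinct windows, 7 of them at HOXA3. Of these windows 17 held the core (65.4%), against 15084 of 34943 distinct promoter windows of the same length in the table (43.2%). Among HOX genes higher in hypoxia 0 of 2 windows held it, against 8 of 12 among those lower, where 7 windows belong to HOXA3 alone. It was in 4 of 4 windows of genes that did not pass, where HOXC4 and HOXC5 have the same window. Of the windows of genes not tested, 6 of 9 held it. HOXB8 and HOXB9 had no window. ACGTG was in 53.8% of the HOX windows (18.5% of all windows) and GCGTG in 34.6% (32.2%). The HOX windows held a median of 19.5 CpG dinucleotides, against 11 in all windows. A match is letters only and shows no binding.

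The libraries labelled Huh7 went against their label in the markers of hepatocytes, which Huh7 cells are known to keep in part. A gene's level is given as CPM, its count scaled to a common library size. In a hepatocyte list of 15, 12 stayed below 1 CPM at either oxygen level, and 5 of these (AFP, APOA1, TTR, GPC3 and FOXA2) had no count in any library. The summed hepatocyte list held 21.1 to 22.1 CPM in hypoxia and 9.02 to 10.7 CPM in normoxia, most of it from TF and HNF4A. KRT18, a keratin of simple epithelia, had a mean of 377 CPM in hypoxia and 497 CPM in normoxia. Of 5 markers each, the blood list summed to 42.8 to 52.2 CPM in hypoxia and 6.7 to 7.13 CPM in normoxia, nearly all of it CD68, with PTPRC at 0. The endothelial list summed to 5.33 to 6.11 CPM in hypoxia and 11.3 to 12.3 CPM in normoxia with KDR at 0. Within it CDH5 averaged 0.453 CPM in hypoxia and 9.15 CPM in normoxia, whereas PECAM1 averaged 4.86 CPM in hypoxia and 2.11 CPM in normoxia, and TEK 0.337 CPM in hypoxia and 0 in normoxia. The epithelial list summed to 398 to 422 CPM in hypoxia and 513 to 530 CPM in normoxia. Most of this was KRT18, and 3 of the 5 epithelial markers stayed below 1 CPM in both groups. The fibroblast list summed to 58.1 to 67.3 CPM in hypoxia and 72.5 to 75.2 CPM in normoxia, with COL1A2 at 0. There too 3 of 5 markers stayed below 1 CPM in both groups. The part of these differences in the HOX results was not tested, and in bulk RNA fewer cells of a type and less RNA per cell cannot be told apart. The response to low oxygen itself was present, since CA9, NDRG1 and VEGFA, known HIF targets, rose by 3.02, 4.33 and 2.94 on the log2 scale. Libraries held 37621426 to 40794783 expected counts.

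**Figure D1:**
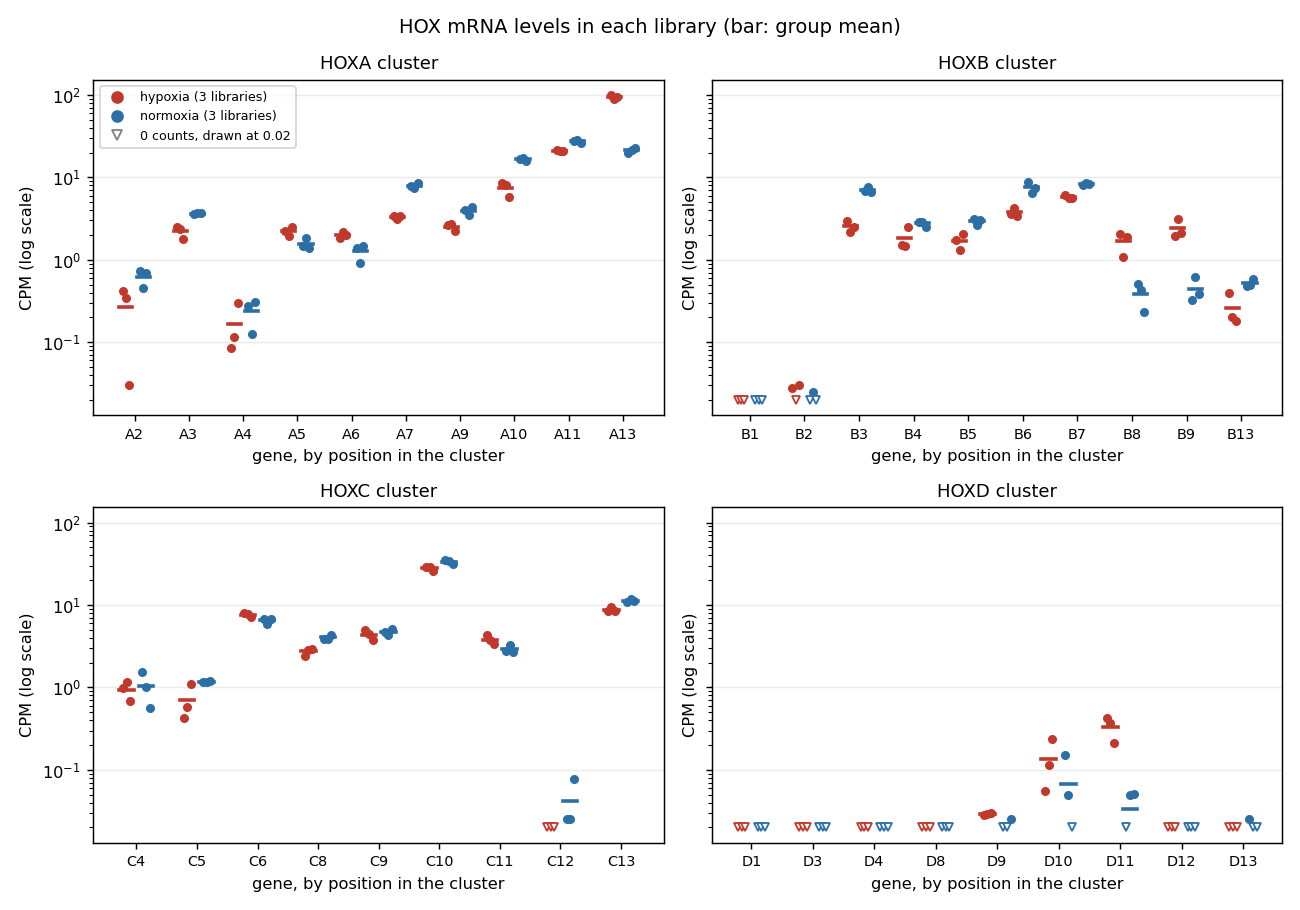
CPM of HOX genes in each library on a log axis, hypoxia (red) left of normoxia (blue), 1 panel per cluster, with bars at the group means and open triangles for 0 counts. HOXA13 is the highest HOX gene in hypoxia on this scale at 88.1 to 99.9 CPM, and no HOXD gene reaches 1 CPM.

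In the HOXA cluster all 11 genes were tested. The posterior end gene rose, both middle neighbours HOXA5 and HOXA6 rose by less, and 6 genes fell. Thus 27.3% were higher and 54.5% lower, against 36.5% and 36.3% of all genes tested. Values of the 3 libraries are given throughout in the order C4, C5, C6 for hypoxia and C1, C2, C3 for normoxia. HOXA13 (chr7:27193503-27200106, minus strand, GRCh38) had 99.9, 88.1 and 94.1 CPM in hypoxia, against 19.9, 21.6 and 22.4 CPM in normoxia. Every hypoxia library lay far above every normoxia library, and the log2 change was 2.14 ± 0.06 (SE, edgeR adjusted p = 4.28e-10). HOXA6 had 1.85, 2.19 and 2.01 CPM in hypoxia, against 1.38, 0.925 and 1.48 CPM in normoxia, a log2 change of 0.67 ± 0.23 (edgeR adjusted p = 0.0205). HOXA5, known for its role in lung development, had 2.22, 1.93 and 2.52 CPM in hypoxia, against 1.46, 1.85 and 1.40 CPM in normoxia, a log2 change of 0.50 ± 0.20 (edgeR adjusted p = 0.0453). The groups of HOXA5 and HOXA6 did not overlap, but the gaps between the nearest libraries were small. The HOXA5 call was lost without hypoxia C4 (0.50), hypoxia C6 (0.41), normoxia C1 (0.44) or normoxia C3 (0.41), and with DESeq2 (adjusted p = 0.0985). The HOXA6 call was lost without hypoxia C5 (0.61) or normoxia C2 (0.48), and when scaled by library totals (adjusted p = 0.0594). Transcripts that overlap no other gene held 0% of the HOXA6 counts and 100% of those of HOXA5.

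Of the 6 HOXA genes that fell, 5 are described here. HOXA7 had 3.37, 3.14 and 3.44 CPM in hypoxia, against 7.86, 7.37 and 8.46 CPM in normoxia (log2 change -1.25 ± 0.11, edgeR adjusted p = 2.58e-06). HOXA10, a gene of the uterus and of the limb and blood lineages, had 8.53, 7.98 and 5.72 CPM in hypoxia, against 16.9, 17.1 and 15.9 CPM in normoxia (log2 change -1.16 ± 0.13, edgeR adjusted p = 1.29e-05). Both were more than 2-fold lower, and hypoxia C6 was the lowest library for HOXA10. HOXA3, a gene of the thyroid, parathyroid and thymus, had 2.52, 2.33 and 1.80 CPM in hypoxia, against 3.58, 3.65 and 3.65 CPM in normoxia (log2 change -0.70 ± 0.16, edgeR adjusted p = 0.00271). HOXA9, best known from blood stem cells and leukaemia, had 2.66, 2.68 and 2.22 CPM in hypoxia, against 4.03, 3.45 and 4.33 CPM in normoxia (log2 change -0.64 ± 0.16, edgeR adjusted p = 0.00355). HOXA11, a gene of the forearm, kidney and uterus, had 21.5, 20.9 and 20.6 CPM in hypoxia, against 27.5, 28.5 and 26.1 CPM in normoxia (log2 change -0.38 ± 0.06, edgeR adjusted p = 0.000212). None of these groups overlapped. HOXA9 no longer passed when only protein-coding transcripts were summed (adjusted p = 0.0518). Transcripts that overlap no other gene held 2.81% of the HOXA3 counts and 0% of those of HOXA7, HOXA9, HOXA10 and HOXA11. HOXA7 shares 1507 exonic bases with HOXA-AS3 on the other strand (62.5% of HOXA7). HOXA2 (log2 change -1.21 ± 0.57) and HOXA4 (-0.51 ± 0.59) were under 1 CPM in both groups and did not pass.

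HOXA13 and HOXA11 are neighbours, and the balance between them turned over. Their log2 count ratio was 2.22, 2.08 and 2.19 in hypoxia and -0.47, -0.40 and -0.22 in normoxia. The ratio of 2 RNAs within a library does not depend on its scaling. Of the HOXA13 counts 99.9% were on transcript ENST00000649031, whose exons overlap an 86-base exon of HOTTIP on the other strand.

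**Figure D2:**
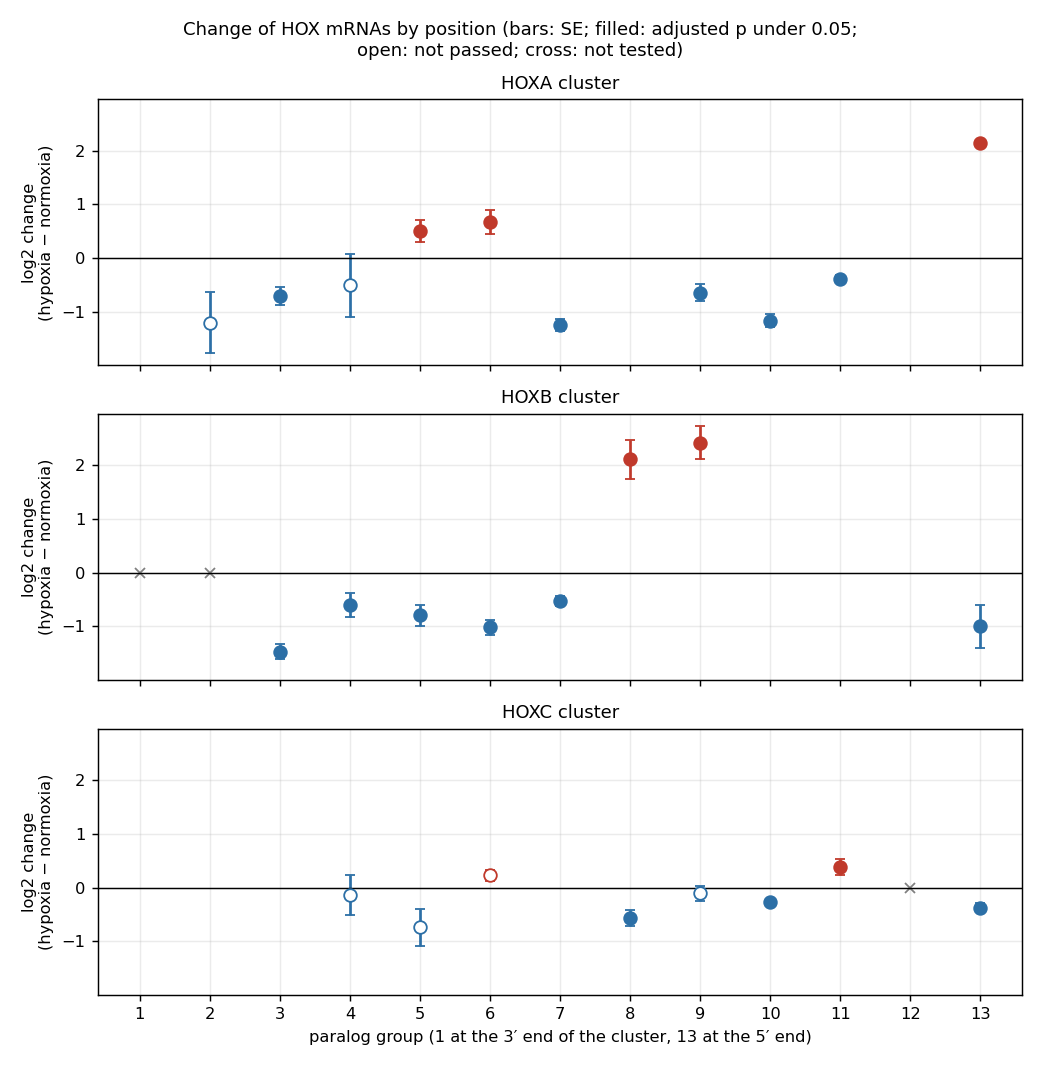
Log2 change (hypoxia minus normoxia) of tested HOX genes against paralog number, 1 panel per cluster, with standard errors, filled where the adjusted p was under 0.05 and crossed at 0 where a gene was not tested. The 3 largest rises are HOXA13 (2.14), HOXB8 (2.12) and HOXB9 (2.42), and the largest fall drawn is HOXB3 (-1.47). No HOXD gene was tested.

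In the HOXB cluster all 8 tested genes changed, 2 higher and 6 lower, and HOXB1 and HOXB2 were not tested. Among all genes tested 72.8% changed, with 36.5% higher and 36.3% lower. HOXB9 had 1.96, 3.11 and 2.13 CPM in hypoxia, against 0.327, 0.625 and 0.382 CPM in normoxia, a log2 change of 2.42 ± 0.31 (edgeR adjusted p = 3.54e-05). HOXB8, known in mice to block the differentiation of myeloid progenitors when forced on, had 2.08, 1.09 and 1.89 CPM in hypoxia, against 0.504, 0.425 and 0.229 CPM in normoxia, a log2 change of 2.12 ± 0.36 (edgeR adjusted p = 0.000333). The groups of both genes stood clearly apart, although hypoxia C5 was the highest library for HOXB9 and the lowest of the hypoxia libraries for HOXB8. Their exons overlap those of no other annotated gene. HOXB7, the next gene on the 3′ side, fell, so the log2 count ratio of HOXB9 to HOXB7 was -1.65, -0.87 and -1.39 in hypoxia and -4.63, -3.77 and -4.46 in normoxia. HOXB7 itself had 6.14, 5.68 and 5.57 CPM in hypoxia, against 8.11, 8.52 and 8.41 CPM in normoxia (log2 change -0.53 ± 0.10, edgeR adjusted p = 0.00058).

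Anterior to HOXB7 the tested HOXB genes fell. Transcripts of HOXB4 and HOXB6 overlap HOXB3 exons on the same strand, so reads may have been divided between these genes. Transcripts that overlap no other gene held 0.273% of the HOXB3 counts and 0% of those of HOXB4, HOXB5 and HOXB6. HOXB3 had 2.92, 2.19 and 2.49 CPM in hypoxia, against 6.77, 7.62 and 6.73 CPM in normoxia (log2 change -1.47 ± 0.14, edgeR adjusted p = 3.56e-06), and its most abundant transcript, ENST00000470495, fell in step at a mean of 1.05 CPM in hypoxia and 3.37 CPM in normoxia. HOXB4, which expands blood stem cells when overexpressed, had 1.49, 1.47 and 2.49 CPM in hypoxia, against 2.90, 2.85 and 2.52 CPM in normoxia (log2 change -0.61 ± 0.22, edgeR adjusted p = 0.0312). Hypoxia C6 nearly reached the lowest normoxia library. HOXB5 had 1.74, 1.30 and 2.04 CPM in hypoxia, against 3.12, 2.67 and 3.01 CPM in normoxia (log2 change -0.80 ± 0.20, edgeR adjusted p = 0.00396). HOXB6 had 3.62, 4.24 and 3.44 CPM in hypoxia, against 8.86, 6.47 and 7.52 CPM in normoxia (log2 change -1.01 ± 0.14, edgeR adjusted p = 9.09e-05). Within HOXB6 the transcript ENST00000225648 had a mean of 0.121 CPM in hypoxia and 2.19 CPM in normoxia, a lower ratio (0.055) than its main transcript ENST00000484302 (0.666), and how RSEM divided reads between them was not tested. HOXB13, the prostate gene at the far 5′ end, had a mean of 0.258 ± 0.117 CPM in hypoxia and 0.521 ± 0.057 CPM in normoxia (SD, n = 3 each, log2 change -1.0 ± 0.40, edgeR adjusted p = 0.043). The HOXB4 call was lost without hypoxia C4 (-0.48), hypoxia C5 (-0.47), normoxia C1 (-0.58) or normoxia C2 (-0.59). The HOXB13 call was lost without hypoxia C5 (-0.84), hypoxia C6 (-0.80), normoxia C1 (-1.07), normoxia C2 (-1.04) or normoxia C3 (-0.92), and with DESeq2 (adjusted p = 0.134).

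In the HOXC cluster 8 of 9 genes were tested, with 1 higher, 3 lower and 4 not past the threshold, and none of them changed 2-fold. Thus 12.5% were higher and 37.5% lower, against 36.5% and 36.3% of all genes tested. HOXC8 had 2.44, 2.85 and 2.93 CPM in hypoxia, against 3.88, 3.90 and 4.38 CPM in normoxia (log2 change -0.56 ± 0.14, edgeR adjusted p = 0.00468). HOXC13, a gene of hair and nails, had 8.39, 9.39 and 8.41 CPM in hypoxia, against 11.0, 11.8 and 11.1 CPM in normoxia (log2 change -0.37 ± 0.09, edgeR adjusted p = 0.00301). HOXC10, a gene of the lumbar level and hindlimb, had 28.6, 28.8 and 26.0 CPM in hypoxia, against 35.0, 34.5 and 31.1 CPM in normoxia (log2 change -0.27 ± 0.07, edgeR adjusted p = 0.0041). These 3 genes fell without overlap between the groups. HOXC13 shares 172 exonic bases with HOXC13-AS on the other strand (7.1% of HOXC13). On the transcripts of HOXC10 that overlap no other gene, which held 20.5% of its counts, the log2 change was 0.14 (edgeR adjusted p = 0.304). These are short transcripts of 550 to 887 bases that are not annotated as protein-coding. The coding transcript ENST00000303460, with 79.4% of the counts, averaged 21.1 CPM in hypoxia and 27.5 CPM in normoxia. HOXC11 had 4.29, 3.72 and 3.38 CPM in hypoxia, against 2.74, 3.27 and 2.73 CPM in normoxia (log2 change 0.38 ± 0.15, edgeR adjusted p = 0.0448). Its call was lost without hypoxia C4 (0.28), hypoxia C5 (0.40), normoxia C1 (0.33) or normoxia C3 (0.33), and with DESeq2 (adjusted p = 0.0956). Its transcripts ran opposite ways, with ENST00000243082 at a mean of 2.87 CPM in hypoxia and 1.34 CPM in normoxia, and ENST00000546378 at 0.932 CPM in hypoxia and 1.57 CPM in normoxia.

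The other HOXC genes did not pass in the main test. HOXC6 had 7.97, 7.78 and 7.19 CPM in hypoxia, against 6.80, 5.97 and 6.78 CPM in normoxia (log2 change 0.23 ± 0.10, edgeR adjusted p = 0.0658). It passed with a filter of 1 CPM (0.27, adjusted p = 0.0356) and on transcripts free of overlap with other genes (0.53, adjusted p = 0.00778). Its transcript ENST00000243108 averaged 3.83 CPM in hypoxia and 2.63 CPM in normoxia, while its most abundant one, ENST00000394331, averaged 3.80 CPM in hypoxia and 3.83 CPM in normoxia. HOXC9 had 4.94, 4.44 and 3.77 CPM in hypoxia, against 4.71, 4.35 and 5.12 CPM in normoxia (log2 change -0.11 ± 0.14). The groups of HOXC9 overlapped, and those of HOXC6 did not. HOXC5 had 0.421, 0.576 and 1.11 CPM in hypoxia, against 1.16, 1.15 and 1.20 CPM in normoxia (log2 change -0.74 ± 0.34, edgeR adjusted p = 0.0756). Without hypoxia C6, its highest hypoxia library, the change was -1.22 and passed (adjusted p = 0.00618). It also passed with library totals, without a count minimum and with limma on FPKM at both pseudocounts (adjusted p = 0.0199 to 0.0498). HOXC4 had 0.982, 1.15 and 0.689 CPM in hypoxia, against 1.56, 1.00 and 0.561 CPM in normoxia (log2 change -0.14 ± 0.37), and its sign turned without normoxia C1 (0.26) or hypoxia C6 (0.04). HOXC4, HOXC5 and HOXC6 can share a start site, so their reads may have been divided between them.

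HOXD was nearly silent in both groups. HOXD1, HOXD3, HOXD4, HOXD8 and HOXD12 and, in the HOXB cluster, HOXB1 had 0 counts in all libraries, which allows up to 3 counts, or 0.075 to 0.0898 CPM, in a library. HOXD11, a gene of the forearm and kidney, had 15, 13 and 7 counts in hypoxia, against 0, 2 and 2 in normoxia. It was below the count minimum of the main test, and without that minimum it was higher in hypoxia (log2 change 3.17 ± 0.83, edgeR adjusted p = 0.00103). HOXC12, HOXD9, HOXD10, HOXD13 and HOXB2 did not pass there. The HOXD genes summed to 0.479 to 0.519 CPM in hypoxia and 0.0765 to 0.176 CPM in normoxia.

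Ordered by paralog number, no gene of groups 1 to 4 was higher in hypoxia. In groups 1 to 4, 7 genes were tested, with 0 higher and 4 lower and a median log2 change of -0.70. In groups 5 to 8, 10 were tested, with 3 higher and 5 lower and a median of -0.54. In groups 9 to 13, 10 were tested, with 3 higher and 6 lower and a median of -0.32. Among all genes tested 36.5% were higher and 36.3% lower. The order of these medians was not tested. Summed levels were 8.01 to 8.72 CPM in hypoxia and 15.5 to 17.2 CPM in normoxia for groups 1 to 4, and 167 to 182 CPM in hypoxia and 120 to 126 CPM in normoxia for groups 9 to 13, where HOXA13 makes up most of the sum in hypoxia. Among the paralogs in group 13, HOXA13 rose whereas HOXC13 and HOXB13 fell. In group 9, HOXB9 rose, HOXA9 fell and HOXC9 did not pass, and in group 8 HOXB8 rose whereas HOXC8 fell.

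Levels of different genes were compared per length, as FPKM (fragments per kilobase of transcript, scaled to the library's size), which was computed for each transcript with its deposited length and summed per gene. HOXC10 was the highest HOX gene in both groups, at 19.7 ± 0.778 FPKM in hypoxia and 24.4 ± 1.71 FPKM in normoxia (SD, n = 3 each). HOXA13 held rank 2 in hypoxia at 17.9 ± 1.37 FPKM and rank 8 in normoxia at 4.52 ± 0.297 FPKM. In hypoxia HOXA11 (7.63 ± 0.295 FPKM) followed, then HOXA10 (4.21 ± 1.0) and HOXB7 (4.14 ± 0.22), and the last pair did not differ beyond their spread. In normoxia HOXC10 was followed by HOXA11 (11.0 ± 0.402 FPKM) and HOXA10 (10.6 ± 0.402), which lay within each other's spread. HOXB7 (6.45 ± 0.143 FPKM) came next in normoxia, then HOXB3 (5.52 ± 0.845), HOXB6 (5.35 ± 1.45) and HOXC13 (5.06 ± 0.162), and these last 3 did not differ beyond their spread. The spreads of HOXB3 and HOXB6 also reached that of HOXB7, and in normoxia C1 HOXB6 (6.87 FPKM) stood above HOXB7 (6.29 FPKM). HOXA13 made up 20.3% to 22% of all HOX FPKM in hypoxia libraries and 4% to 4.92% in normoxia libraries, whereas HOXC10 held 23.5% to 23.9% in hypoxia and 23.4% to 24.9% in normoxia. Within HOXA, the share of HOXA13 was 44.2% to 48.9% in hypoxia and 10.7% to 12.5% in normoxia, and the leading HOXA gene in normoxia was HOXA11 at 27.6% to 29.5%. The HOXB share of all HOX FPKM was 13.2% to 15.2% in hypoxia and 20.3% to 22.1% in normoxia. The direction of the family's sum depends on the unit. Summed FPKM was 81.2 to 87.7 in hypoxia and 97.1 to 105 in normoxia, while summed CPM, in which the long HOXA13 mRNA weighs more, was 207 to 222 in hypoxia and 178 to 183 in normoxia.

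**Figure D3:**
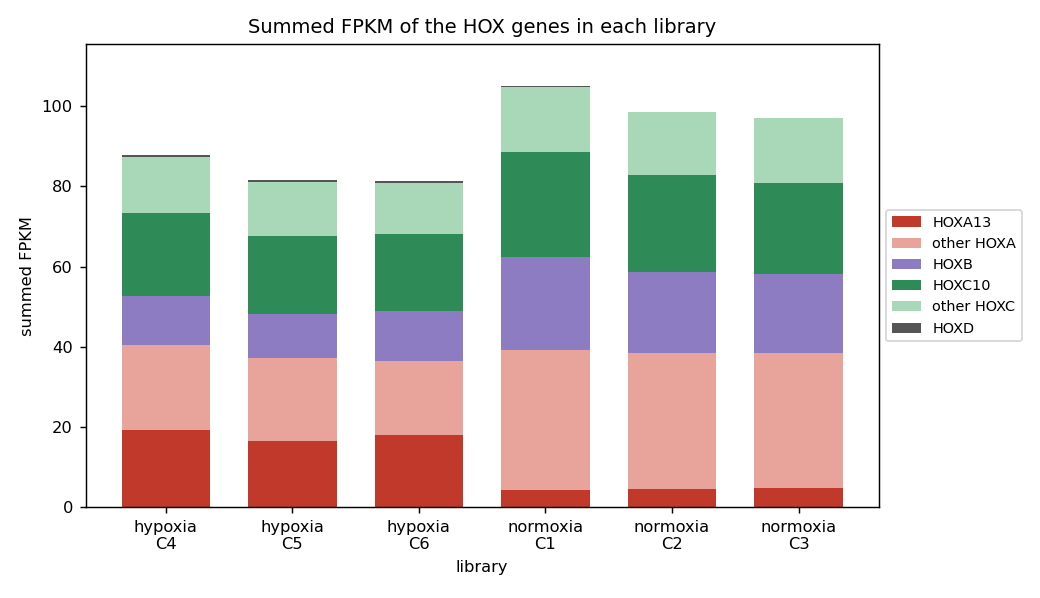
Summed FPKM of the HOX genes in each library, stacked by gene or cluster, hypoxia libraries left of normoxia libraries. HOXA13 is the bottom segment, at 16.5 to 19.2 FPKM in hypoxia and 4.2 to 4.78 FPKM in normoxia, and the HOXB segment is smaller in hypoxia (10.8 to 12.4 FPKM, against 19.8 to 23.2 FPKM in normoxia).

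Of 24 listed noncoding RNAs of the clusters, 10 were tested and 12 had no count. With 3 higher and 5 lower, 80% of those tested changed, near the 72.8% of all genes tested (36.5% higher and 36.3% lower). PRAC2, a protein-coding gene in the same list, had no count. HOTTIP, which in other human cells brings a histone methyltransferase complex to the 5′ HOXA genes, had 10.5, 10.8 and 9.01 CPM in hypoxia, against 2.17, 2.80 and 1.99 CPM in normoxia. The groups stood far apart (log2 change 2.12 ± 0.15, edgeR adjusted p = 2.74e-07). On the HOTTIP transcripts that share no base with HOXA13 the levels were 7.84, 7.68 and 6.18 CPM in hypoxia, against 2.08, 2.22 and 1.66 CPM in normoxia. The log2 count ratio of HOXA13 to HOTTIP was 3.03 to 3.38 in hypoxia and 2.95 to 3.49 in normoxia, 2 ranges that overlap. HOXA11-AS had 18.3, 19.9 and 16.1 CPM in hypoxia, against 13.4, 11.8 and 11.9 CPM in normoxia (log2 change 0.55 ± 0.10, edgeR adjusted p = 0.000378), the opposite direction to HOXA11. Their annotated exons share 717 bases, and whether the counting used the strand is not given in the sources used here. HOTAIRM1, an antisense RNA at the 3′ end of the cluster, fell by 0.86 ± 0.13 on the log2 scale. HOXA10-AS fell by 1.12 ± 0.18, the direction of HOXA10, and shares 608 exonic bases with it (36.8% of HOXA10-AS). In the HOXC cluster HOTAIR, which is known to recruit Polycomb proteins to HOXD in fibroblasts, had 3.53, 3.34 and 4.04 CPM in hypoxia, against 5.92, 6.95 and 5.97 CPM in normoxia (log2 change -0.79 ± 0.13, edgeR adjusted p = 0.000266). HOXC13-AS fell by 1.52 ± 0.33. HOXC-AS3, beside HOXC10, was higher by 0.87 ± 0.27 (edgeR adjusted p = 0.0138), a call lost without hypoxia C4 (0.76) and with limma on FPKM values. HOXA-AS2 fell by 0.60 ± 0.23 (edgeR adjusted p = 0.0395), a call lost without hypoxia C4 (-0.51), hypoxia C6 (-0.60), normoxia C2 (-0.52) or normoxia C3 (-0.61).

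**Figure D4:**
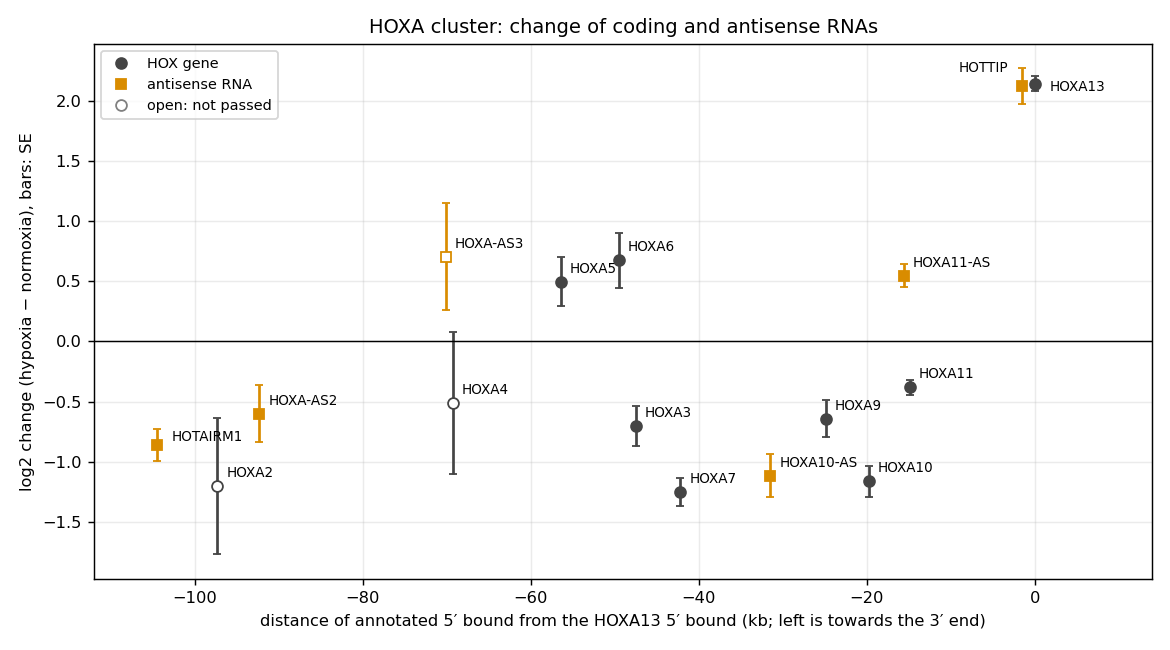
Log2 change (hypoxia minus normoxia, with standard errors) of tested HOXA genes (circles) and antisense RNAs (squares) against the distance in kb of their annotated 5′ bound from that of HOXA13. HOXA13 and HOTTIP stand together at 2.14 and 2.12, HOXA11 (-0.38) and HOXA11-AS (0.55) lie on either side of 0, and HOTAIRM1 at the other end is lower.

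The clusters also hold microRNA genes, of which mature miR-196 is a known regulator of HOXB8. Their sequences are shown because HOXB8 rose and carries a nearly complete miR-196 match. The first 3 lines are mature microRNAs from RefSeq (GRCh38.p14) with the seed in capitals, and the last is the site in HOXB8 with the bases complementary to miR-196a-5p in capitals.
miR-196a-5p: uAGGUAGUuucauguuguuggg
miR-196b-5p: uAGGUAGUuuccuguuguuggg
miR-10a-5p: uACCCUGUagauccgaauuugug
HOXB8 site: CCCAACAACAUGAAACUgCCUA
The genes MIR196A1, MIR196A2 and MIR196B encode microRNAs with the same seed. The HOXB8 site lies after the coding part of ENST00000239144, at transcript bases 1378 to 1399, and 21 of its 22 bases are complementary to miR-196a-5p. The remaining base, a G in lower case, lies opposite a U of the seed, a G:U pair that the search did not count as a match. HOXB8 itself therefore has no exact seed match, although a G can pair weakly with a U. A seed match of miR-196a-5p after the coding part was found in 8 of the 36 HOX transcripts with an annotated coding part, among them HOXA7 (4 matches), HOXA9 and HOXC8 (2 each), HOXB7 and HOXB6, which fell, and HOXA5, which rose. The 6 microRNA genes listed had 0 counts, and mature microRNAs are too short for these libraries, so their levels were not measured.

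The TALE cofactors moved both ways. MEIS2 had 36.2, 38.0 and 36.2 CPM in hypoxia, against 16.7, 18.2 and 19.3 CPM in normoxia (log2 change 1.03 ± 0.07, edgeR adjusted p = 1.59e-07). The groups stood far apart, with MEIS2 2.04-fold higher in hypoxia. PBX4 fell by 1.06 ± 0.17, at a low level of 1.64 CPM in hypoxia and 3.43 CPM in normoxia. MEIS3 (log2 change 0.39 ± 0.08), PKNOX1 (0.36 ± 0.07), PBX2 (0.15 ± 0.04) and PBXIP1 (0.15 ± 0.05), a PBX-binding protein, were higher. PBX2 (0.00) and PBXIP1 (0.00) lost their calls when scaled by library totals and with limma on log2(FPKM + 0.5), where PBX2 stood at 0.06 and PBXIP1 at -0.06, and the PBXIP1 call was also lost without hypoxia C4 (0.15), hypoxia C5 (0.13), normoxia C2 (0.12) or normoxia C3 (0.14). PBX3 (-0.01 ± 0.07) and MEIS1 (-0.03 ± 0.08) did not pass, although PBX3 was lower with library totals (-0.17, adjusted p = 0.0499). In all 5 of the 9 tested were higher and 2 lower, so 77.8% changed, near the 72.8% of all genes tested.

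Of 30 Polycomb genes tested, which belong to the complexes that set HOX chromatin, 16 were higher (53.3%, against 36.5% of all genes tested) and 11 lower (36.7%, against 36.3%), with a median log2 change of 0.16. RYBP, a subunit of variant PRC1, had 8.67, 9.97 and 9.01 CPM in hypoxia, against 1.56, 1.40 and 2.27 CPM in normoxia (log2 change 2.40 ± 0.17, edgeR adjusted p = 3.61e-07). CBX6, a chromodomain subunit of canonical PRC1, averaged 46.5 ± 4.27 CPM in hypoxia and 138 ± 2.25 CPM in normoxia (SD, n = 3 each, log2 change -1.57 ± 0.06). EED, a core subunit of PRC2, and PHC2, a PRC1 subunit, were higher by 1.22 ± 0.15 and 1.21 ± 0.04. Of 25 Trithorax-type and activating genes, 12 were higher and 8 lower (median 0.15), so 80% changed, near the 72.8% of all genes tested. KDM6B, which removes the Polycomb mark from histone H3, averaged 145 ± 14.7 CPM in hypoxia and 42.8 ± 1.77 CPM in normoxia (log2 change 1.76 ± 0.07). DOT1L, a histone methyltransferase linked to HOXA expression in leukaemia, was higher by 1.42 ± 0.06, AFF4, a scaffold of the super elongation complex, by 0.94 ± 0.05, and KMT2D by 0.83 ± 0.14, a call lost with limma on log2(FPKM + 0.5) (0.25, adjusted p = 0.164). RNA levels do not measure the histone marks.

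Of 18 retinoic acid pathway genes 11 were tested, with 7 higher (63.6%, against 36.5% of all genes tested) and 3 lower (27.3%, against 36.3%) and a median log2 change of 0.30. CRABP2, which carries retinoic acid to its nuclear receptor, had 93.2, 87.2 and 84.1 CPM in hypoxia, against 4.61, 4.55 and 5.18 CPM in normoxia, 18.4-fold higher (log2 change 4.21 ± 0.07, edgeR adjusted p = 1.09e-11). DHRS3, which turns retinal back into retinol, was higher by 2.35 ± 0.06, the receptor gene RARA by 1.88 ± 0.06, and the retinol uptake receptor STRA6 by 1.71 ± 0.10. The 3 lower members were the receptor gene RARG (-0.899 ± 0.045), ALDH1A2 (-0.880 ± 0.365), whose groups overlapped, and ALDH1A3 (-0.539 ± 0.081). In the same libraries the anterior genes HOXA3, HOXB3 and HOXB4 fell, and no link between the lists was tested. Of 20 genes flanking the clusters 15 were tested, with 8 higher (53.3%, against 36.5% of all genes tested) and 5 lower (33.3%, against 36.3%) and a median of 0.49. LNPK, next to HOXD, averaged 121 ± 6.17 CPM in hypoxia and 36.8 ± 2.44 CPM in normoxia (SD, n = 3 each, log2 change 1.71 ± 0.06), beside a HOXD cluster without detectable mRNA for most genes. CALCOCO1 (1.17 ± 0.05) and CBX5 (0.85 ± 0.04), near HOXC, were higher, and ATP5MC3, in the HOXD region, fell by 1.03 ± 0.06. SKAP2 beyond the 3′ end of HOXA was higher by 0.53 ± 0.07, and HIBADH beyond HOXA13 did not pass (-0.03 ± 0.05). Among 13 other homeobox genes related to HOX, 3 were tested. MNX1, a motor neuron and pancreas gene, rose by 1.38 ± 0.08, and GBX2 and MEOX1 fell by 1.50 ± 0.16 and 0.60 ± 0.17.

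**Figure D5:**
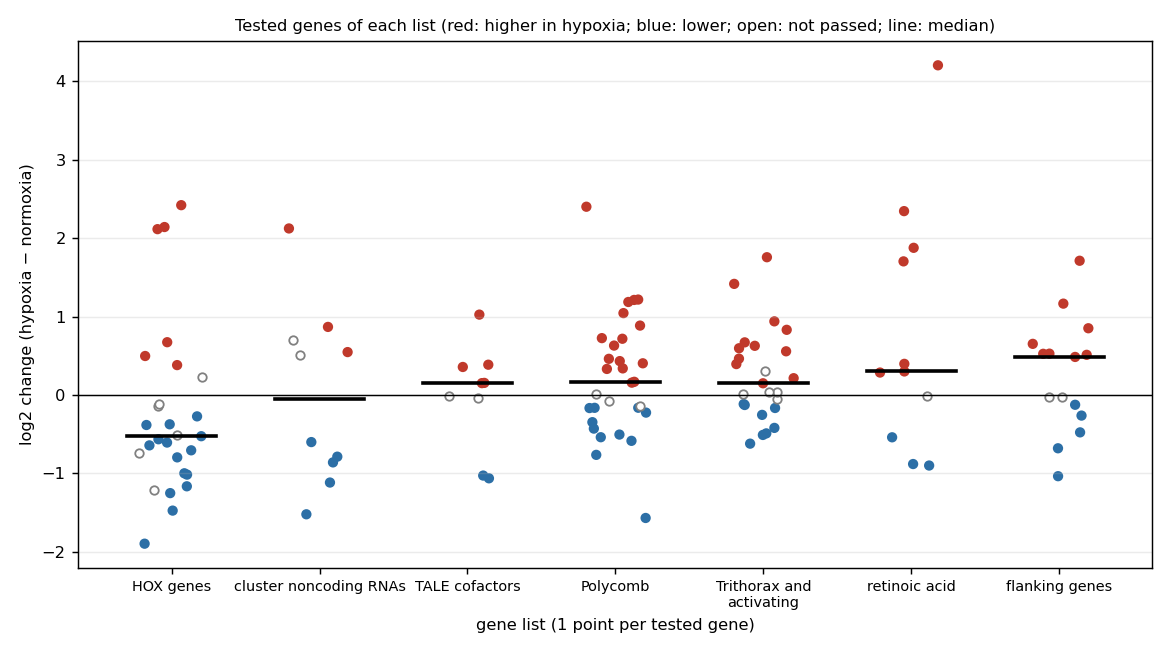
Log2 change (hypoxia minus normoxia) of each tested gene in the HOX family and 6 related lists, red where higher, blue where lower, open where the test did not pass, with a line at the list's median. The HOX median is -0.52, and that of the flanking genes 0.49.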

How the data were processed

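Per the labels, ribosomal RNA was removed from total RNA before stranded paired-end sequencing. The submitters' processing notes name cutadapt, HISAT2, RSEM and GRCh38 (hg38), with no version of the tools or the annotation given in the sources used here. The deposited table holds, for each of 251062 transcripts, the authors' expected counts (reads divided among transcripts) and the transcript's length; 6 other per-sample columns were not used. Column names gave each library's condition but no replicate number.

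Transcripts were summed per gene with GENCODE 29. Rows without a gene there (48155, holding 6.12% to 6.39% of the counts) stayed out. Overlaps between genes were taken from GENCODE 29 exons, and some deposited lengths differ from that release. ENST00000006015 of HOXA11 has a deposited length of 2669 bases, against 2307 exonic bases of the whole gene in GENCODE 29. ENST00000332503 of HOXB4 has 2002 bases, although its GENCODE 29 sequence reaches base 3662. Overlaps in the transcripts that were counted may thus differ. Gene sums were rounded, filtered by edgeR's filterByExpr, scaled by TMM and tested with edgeR 4.0.16 (limma 3.58.1, R 4.3.3) by the two-sided quasi-likelihood test with Benjamini-Hochberg adjustment over 17396 genes and a threshold of 0.05. The SE is the size of the log2 change divided by the square root of F. CPM uses the TMM-adjusted library size. FPKM was computed from the expected counts, the full deposited transcript lengths and each library's total in genes, and summed per gene. The code was tested on simulated data. No library pair of a group matched within sampling noise (chi-square over degrees of freedom 4.62 to 11.2). Replicates are labelled biological, with no account of separate cultures, so p-values reflect only how much these libraries vary, which may be technical. Floors of 3 counts cover counting error only.

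Members and lists were chosen with earlier results of these data known. HOX genes at 1 CPM or more in a group are given by library, and up to 4 members of other lists by size of change. SKAP2, HIBADH and the lower retinoic acid genes were added after their values were seen. The values of 2 genes counted in these lists are not reported here. Alternatives were other scalings, DESeq2 1.42.0, other count filters, limma on log2(FPKM + 0.5) and log2(FPKM + 0.1), subsets of transcripts and leaving out each library. Motifs and microRNA sites were searched with Python 3.11.15.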

Additional observations from a re-analysis of the deposited data

How the results depend on the processing

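No paired analysis was possible because the table's columns carry no replicate number of the labels. Of 412 comparisons of a HOX gene's log2 change with an alternative, 360 kept direction and call, 36 lost the call, 10 gained it and 6 changed sign. The 14 HOX genes past the threshold in every alternative that gave a value include HOXA13, HOXB8 and HOXB9. The HOX count of 21 changed genes was 17 to 21, the count higher 4 to 6 and the count lower 13 to 15 when 1 library was left out. With transcripts that overlap no other gene, 12 HOX genes could be tested, and 8 changed, 3 of them lower and the rest higher. Of all genes tested in that setting, 12653 of 17381 changed. Compared with the main test, HOXC6 gained a call and HOXC10 lost one, and the others of the 12 were called as before. The larger share of higher genes than among the 27 thus came mainly from which genes had such transcripts. Higher in hypoxia were 3 with library totals. Library totals moved the median log2 change of all genes to -0.13, against 0.03 with TMM, and HOXA5, HOXA6 and HOXC11 then missed the threshold. Signs turned for HOXC4 (-0.448 to 0.258 when 1 library was left out), HOXC6 (-0.013 on its most abundant transcript), HOXC9 (0.094 on overlap-free transcripts and on its most abundant one) and HOXC10 (0.137 on overlap-free transcripts). They also turned for PBX2 (-0.000 with library totals), PBX3 (0.025 with a 1 CPM filter, -0.075 to 0.005 when 1 library was left out), MEIS1 (0.006 with a 1 CPM filter, -0.090 to 0.019 when 1 library was left out) and PBXIP1 (-0.059 and -0.061 with limma on log2(FPKM + 0.5) and log2(FPKM + 0.1)). A comparison of these FPKM with the authors' own FPKM was not run, because the table was read through its expected counts alone. The cause was not tested. Depth limits the genes under 1 CPM, where a few counts set the level.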
